A study of Arabidopsis thaliana with 9 samples.

Results

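Seedlings of wild-type Col-0 and of the Arabidopsis thaliana line labelled nrpe1-11 were compared here gene by gene, from RNA sequencing with 3 libraries of each. Genes were included when their FPKM (fragments per kilobase of transcript, scaled to the mapped fragments of the library, a level per gene length) was at least 1 in 3 or more of these 6 libraries. That rule kept 17646 of the 37898 genes in the authors' table. All plants were 2 weeks old, had the treatment label Mock, and grew in days of 16 h light at 22 °C and nights of 8 h at 18 °C. The control group carried the wildtype genotype of the Col-0 ecotype, and the mutant group is given only by the allele name nrpe1-11. The series holds another genotype, nrpd1-3, with 3 libraries, which entered the fit for the spread and is used for a few side by side values. The series' title places the comparison in gene regulation and plant defense by transcripts of Pol V.

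NRPE1 encodes the largest subunit of RNA polymerase V, a plant-specific enzyme. Its noncoding transcripts act as scaffolds to which Argonaute proteins bound to small RNAs are recruited, and DNA methylation follows there (RNA-directed DNA methylation, RdDM). NRPD1 encodes the largest subunit of RNA polymerase IV, which makes the precursors of those small RNAs, so that a process needing both polymerases and one needing only Pol V can be set apart by the mutants. Each mutant is represented by 1 allele, and a change elsewhere in the nrpe1-11 line cannot be told apart from the loss of NRPE1. Separate plants, pools and technical repeats are not distinguished in the labels, so the p-values reflect the spread among libraries, which may be technical.

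NRPE1 (AT2G40030, chromosome 2, 16714460 to 16723718, plus strand, TAIR10.1) was too low for the rule. Its FPKM was 0.831, 0.843 and 0.863 in Col-0, against 0.624, 0.254 and 0.339 in nrpe1-11. All mutant values lay below all wild-type values, and the transcript was still detected in each mutant library. Added to the fit, it had a log2 fold change of -0.40 ± 0.21 (SE), which missed the threshold (limma, adjusted p = 0.181). The exact two-sided permutation test gave p = 0.1, the smallest that 3 libraries against 3 allow. Of the 17 tested subunits of Pol IV and Pol V, several of them shared with Pol II, 2 rose and 0 fell. NRPE5, a fifth-largest subunit used by Pol V, was at 5.94, 4.45 and 5.72 in Col-0 and 9.77, 11.5 and 9.79 in nrpe1-11, with a log2 fold change of 0.84 (adjusted p = 0.00118, SE 0.15). NRPD1, listed as NRPD1A, had 0.565, 0.489 and 1.05 in Col-0 and 1.56, 1.98 and 2.3 in nrpe1-11. It passed the filter largely through its mutant libraries, so it had to be higher there, and its call was lost when some single libraries were left out.

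The number of genes at 1 FPKM or more was 16802 to 17495 among the 6 libraries. Read numbers are not stated, and the spacing of low values put the aligned amount at 1.01 to 1.23 gigabases per library. Among the 6, Col-0 replicate 2 stood apart. It had 21.4% of its FPKM in ribosomal RNA genes and 35.7% in its 10 highest genes, against 16.8% to 19.4% and 23.9% to 26.9% in the other libraries of both groups. The first principal component, 49.2% of the variance over all 9 libraries, separated the nrpe1-11 libraries (39.00 to 42.09) from the other 6 (-27.23 to -16.67). Col-0 replicate 2 lay at the end of the second component (-37.4).

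Differences were tested with limma on log2(FPKM + 1), a scale that understates the changes of low genes, and called at an adjusted p under 0.05. With FPKM as deposited, 2600 genes (14.7%) were called higher and 1341 (7.60%) lower in nrpe1-11, and the median gene had a log2 fold change of 0.18. After median-ratio rescaling, which centres the libraries on their typical gene, the split was 1188 higher (6.73%) and 2132 lower (12.1%), with a median of 0.02. No gene was called in opposite directions. Calls in either direction made up 22.3% of the tested genes as deposited and 18.8% after rescaling. In 39.9% of the tested genes the libraries of the genotypes did not overlap, with nrpe1-11 above Col-0 in 29.3% and below it in 10.6%. Below, a gene rose or fell only when limma called it in the same direction under both scalings and the 3 mutant values lay entirely above or below the 3 wild-type values. By this stricter reading 1182 genes rose (6.70% of those tested) and 1306 fell (7.40%), 14.1% together, and these shares are the background for every list. Without Col-0 replicate 2, 1083 of the 1182 and 1203 of the 1306 kept their call, and 985 and 957 kept it with each of the 6 libraries left out in turn. Each adjusted p printed is that of limma with FPKM as deposited.

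The falls went further than the rises. A log2 fold change of at least 1 was seen in 514 genes that fell and 112 that rose, and one of at least 2 in 105 and 8. Genes that fell made up 18.8% of the FPKM of tested genes in Col-0 and 11.0% in nrpe1-11, whereas genes that rose went from 8.34% to 13.4%. There were 116 genes that passed the filter only through nrpe1-11 and 161 only through Col-0. Those had to differ, and 39 of the first rose and 142 of the second fell. Of the genes named below, AT4G12500, BBX16, CRK5, CRK6, CRK14, CRK20, ELIP1, ERF1, GSTU12, NRT2.6 and PER4 passed only through Col-0. AT5G41830 passed only through nrpe1-11. The calls and p-values of all these genes are no support for a family. Beside the counts of falls below, such genes made up 5 of the 10 in ERF and DREB factors, 3 of the 10 in cysteine-rich receptor kinases, 3 of the 9 in class III peroxidases, 3 of the 24 in cytochrome P450 and 3 of the 15 in UDP-glucosyltransferases. They were 2 of the 13 in WRKY factors, 2 of the 9 in BBX factors, 2 of the 9 in lectin receptor kinases, 2 of the 5 in C2H2 repressors and 2 of the 11 in leucine-rich repeat receptor kinases. The folding and phenylpropanoid lists had 0 such falls. Among rises, genes that passed only through nrpe1-11 were 1 of the 5 in SAUR genes and 1 of the 5 in leucine-rich repeat receptor kinases. The 1 rise in cysteine-rich receptor kinases and the 1 rise in heat shock proteins were also such genes. For the noncoding gene types such genes were not counted. Genes with exactly 3 libraries at the minimum numbered 674, with median levels of 0.999 FPKM in Col-0 and 1.05 in nrpe1-11, and those just outside the rule, with 2 libraries, numbered 694, with 0.76 and 0.897. Of the genes that rose or fell, 770 overlap another annotated gene. Whether counting used strand is not stated in the labels, and their reads may be shared with that neighbour. Among the genes named with a value this holds for AIR1, AT4G12490, AT5G27850, ATAF2, CAT2, CRK10, CRK11, CRK19, CSD1, DWF1, EARLI1, EMB1290, GLT1, GLU1, GUN4, KELP, LECRKA4.1, MLO12, NRPE5, NRT1.5, NRT1.8, PTAC18, PTAC7, RCA, STO, U2.11 and WRKY53.

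**Figure D1:**
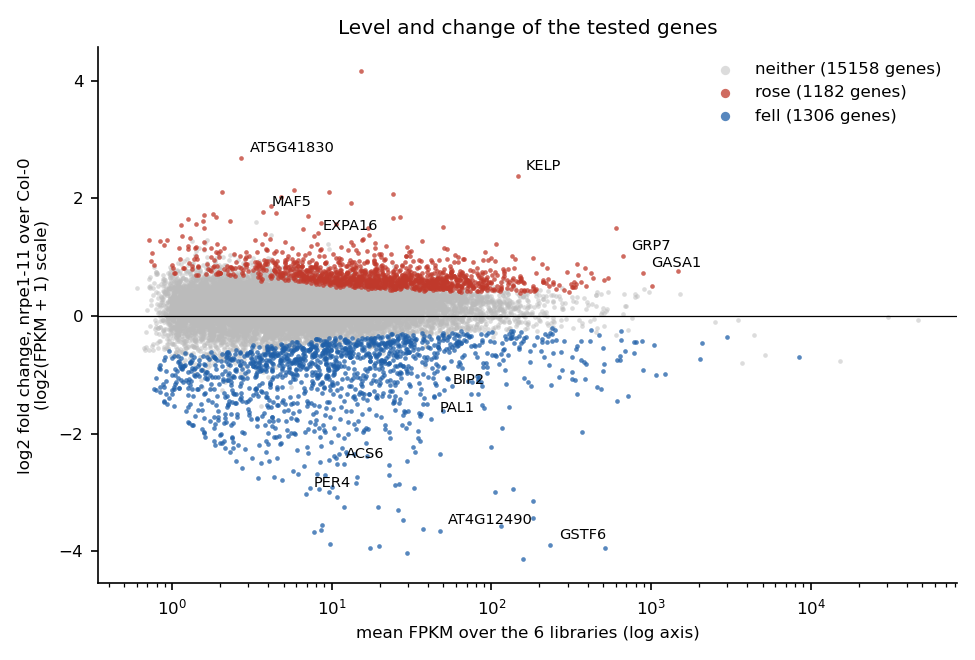
Each point is 1 of the 17646 tested genes, with its mean FPKM over the 6 libraries (x, log axis) against its log2 fold change of nrpe1-11 over Col-0 (y, log2(FPKM + 1) scale). The 1306 genes that fell reach further from 0 than the 1182 that rose, with 105 against 8 at a log2 fold change of 2 or more in size.

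Fewer cells of a type and less RNA per cell cannot be told apart in whole seedlings, so markers of cell types were read beside the results. All 5 leaf mesophyll markers were tested, 3 fell, and their summed level was 9613 to 11280 FPKM in Col-0 and 7192 to 8462 in nrpe1-11. RCA, rubisco activase, had a log2 fold change of -1.36 (adjusted p = 5.59e-09, SE 0.075). Of 6 root markers 3 rose and 1 fell, and their sum was 447.9 to 571.9 FPKM in Col-0 and 649.7 to 681.1 in nrpe1-11. PHO1, the phosphate exporter of the root stele, was at 23.1, 19.8 and 22.8 in Col-0 and 36.5, 36 and 35.3 in nrpe1-11, with a log2 fold change of 0.69 (adjusted p = 0.00013, SE 0.10). Of 5 guard cell markers 1 rose, of 4 phloem markers 1 rose, and of 5 xylem, 5 root hair, 2 trichome and 2 floral markers 0 rose and 0 fell, while none of 6 seed markers passed the filter. The part of these marker differences in the results that follow was not tested.

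Among the lists described here, the highest share of falls was in protein folding in the endoplasmic reticulum. This machinery folds secreted and membrane proteins: BiP is the HSP70 chaperone of the lumen, calnexin and calreticulin hold glycoproteins, and protein disulfide isomerases (PDIL) with ERO1 form disulfide bonds. When unfolded proteins accumulate, the factors bZIP60, bZIP28 and bZIP17 switch on these genes through short promoter elements (the unfolded protein response). Of 18 tested members of the list, 12 fell and 0 rose, and all 12 kept the call with each library left out in turn. The list had a median log2 fold change of -0.72, against 0.18 for all tested genes. Without Col-0 replicate 2 all 12 falls were kept, as were all 11 of the phenylpropanoid list and all 7 of ethylene synthesis described next.

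BIP2 (AT5G42020) had FPKM values of 75.3, 66.9 and 72.5 in Col-0 and 30.4, 27.2 and 30.1 in nrpe1-11, with a log2 fold change of -1.26 (adjusted p = 8.96e-08, SE 0.089). BIP1 (AT5G28540) was at 79.5, 77.7 and 79.3 in Col-0 and 37.3, 30.8 and 34.4 in nrpe1-11, with a log2 fold change of -1.19 (adjusted p = 2.5e-07, SE 0.091). The mutant values of both lay well under the wild-type values, and as close paralogs they may share reads. PDIL1-2 (AT1G77510), a disulfide isomerase, measured 26.9, 27.1 and 29.3 in Col-0 and 11, 11.9 and 12.2 in nrpe1-11, with a log2 fold change of -1.18 (adjusted p = 1.11e-06, SE 0.10). ATERDJ3B (AT3G62600), a DnaJ partner of BiP, stood at 32.6, 26.2 and 32.9 in Col-0 and 15.1, 12.4 and 13.3 in nrpe1-11, with a log2 fold change of -1.11 (adjusted p = 8.26e-06, SE 0.12). For CNX1 (AT5G61790), calnexin, the libraries gave 88.1, 71.7 and 95.3 in Col-0 and 47.3, 42.5 and 45.7 in nrpe1-11, with a log2 fold change of -0.89 (adjusted p = 3.36e-05, SE 0.11). That the groups did not overlap in these genes follows from the rule for a fall. These genes were named by their smallest adjusted p within the list, a choice that favours close replicates. In CNX1 the Col-0 libraries were spread from 71.7 to 95.3. The other members that fell were ERO1, PDIL2-2, CRT1a and CRT1b (calreticulins), SDF2, SHD (the HSP90 of the lumen) and PDIL1-1, with log2 fold changes from -0.45 for PDIL1-1 to -0.90 for ERO1. Apart from SHD, those genes and the genes of the bZIP factors were named after their values were seen. The bZIP factor genes were not called, with log2 fold changes of -0.12 for BZIP60, 0.06 for BZIP28 and 0.19 for BZIP17. Only transcript levels were measured, so the activity of these factors was not read. A separate list of heat shock proteins, which also holds SHD, had 5 falls and 1 rise among 28 tested.

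The 250 bases before the annotated starts of these genes were read from the TAIR10.1 genome and searched, on both strands, for elements of the unfolded protein response. These were the ER stress element (CCAAT, 10 free bases, CACG), its second form (ATTGG, 1 free base, CCACG) and the UPRE core TGACGTG, which overlaps the ABRE core ACGTG. They were picked after the fall of the list had been seen. The ER stress element was present in 4 of the 12 genes that fell and in 0.917% of the promoters of all 17118 tested protein-coding genes. The UPRE core was present in 5 of the 12 and in 3.24% of all, and the second form in 0 of the 12 and in 0.0701% of all. A match in such a window is a description and not a measured site. Of the 6 promoters with a match 5 are shown, 5′ to 3′ on the strand of the gene, ending at the base before its start, with matches to any of these in capitals (RefSeq, TAIR10.1). The 6 promoters without a match, BIP1 and BIP2 among them, hold neither run of letters in this window.
PDIL1-1 (chr1:7645360-7645609, plus strand): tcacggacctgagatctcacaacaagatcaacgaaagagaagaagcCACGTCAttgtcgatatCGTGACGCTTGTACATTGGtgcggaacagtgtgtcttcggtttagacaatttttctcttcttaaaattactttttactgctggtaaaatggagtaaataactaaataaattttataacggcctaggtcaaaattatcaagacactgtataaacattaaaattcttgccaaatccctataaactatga
CRT1a (chr1:21092710-21092959, minus strand): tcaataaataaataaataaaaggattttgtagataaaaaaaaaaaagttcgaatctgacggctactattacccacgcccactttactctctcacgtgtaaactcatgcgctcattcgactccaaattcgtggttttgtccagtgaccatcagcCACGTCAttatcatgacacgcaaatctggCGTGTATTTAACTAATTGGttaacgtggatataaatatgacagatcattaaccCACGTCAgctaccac
PDIL1-2 (chr1:29126398-29126647, plus strand): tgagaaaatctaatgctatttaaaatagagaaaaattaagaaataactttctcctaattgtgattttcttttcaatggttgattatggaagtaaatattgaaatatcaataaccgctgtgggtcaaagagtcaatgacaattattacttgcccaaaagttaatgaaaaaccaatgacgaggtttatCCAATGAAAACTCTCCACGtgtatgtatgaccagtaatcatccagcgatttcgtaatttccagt
SHD (chr4:12556059-12556308, minus strand): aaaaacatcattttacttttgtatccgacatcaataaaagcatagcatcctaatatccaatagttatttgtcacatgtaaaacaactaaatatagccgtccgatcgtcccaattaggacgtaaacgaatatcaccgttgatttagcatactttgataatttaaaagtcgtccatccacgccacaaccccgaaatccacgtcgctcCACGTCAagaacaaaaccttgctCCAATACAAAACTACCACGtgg
PDIL2-2 (chr1:1416219-1416468, minus strand): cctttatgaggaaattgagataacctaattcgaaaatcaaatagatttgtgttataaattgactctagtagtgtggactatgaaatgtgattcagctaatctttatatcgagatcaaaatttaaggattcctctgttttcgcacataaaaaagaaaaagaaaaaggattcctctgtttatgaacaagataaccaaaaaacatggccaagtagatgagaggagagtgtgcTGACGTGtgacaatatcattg

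Phenylpropanoid and lignin synthesis fell at several steps between phenylalanine and the lignin alcohols. The pathway starts from phenylalanine, and its products are lignin, flavonoid precursors and sinapate esters. Among 19 tested genes 11 fell, 0 rose, and 10 of the 11 kept the call with each library left out, with a list median of -0.52. PAL1 (AT2G37040), phenylalanine ammonia-lyase and the entry enzyme, was at 65.5, 60.4 and 69.4 in Col-0 and 20.1, 17.3 and 18.7 in nrpe1-11, with a log2 fold change of -1.75 (adjusted p = 5.46e-09, SE 0.10). PAL2 (AT3G53260), its close relative, read 34, 33.7 and 38.8 in Col-0 and 15.6, 15.7 and 15.8 in nrpe1-11, with a log2 fold change of -1.13 (adjusted p = 1.19e-06, SE 0.10). FAH1 (AT4G36220), the ferulate 5-hydroxylase that leads to sinapate, gave 33.3, 36.2 and 30.6 in Col-0 and 12.8, 12 and 12.4 in nrpe1-11, with a log2 fold change of -1.36 (adjusted p = 1.84e-07, SE 0.10). OMT1 (AT5G54160), a methyltransferase for lignin and flavonol precursors, measured 111, 102 and 107 in Col-0 and 45.8, 36.6 and 43.3 in nrpe1-11, with a log2 fold change of -1.33 (adjusted p = 2.29e-07, SE 0.10). The groups were apart in these 4 genes, as the rule for a fall requires, and the replicates of each were close together. They were named by smallest adjusted p, a choice that favours close replicates. CAD5 (AT4G34230), a cinnamyl alcohol dehydrogenase at the end of the pathway, had a log2 fold change of -0.98 (adjusted p = 4.67e-06, SE 0.10). Of 12 tested genes of the secondary wall and xylem, 0 rose and 0 fell.

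**Figure D2:**
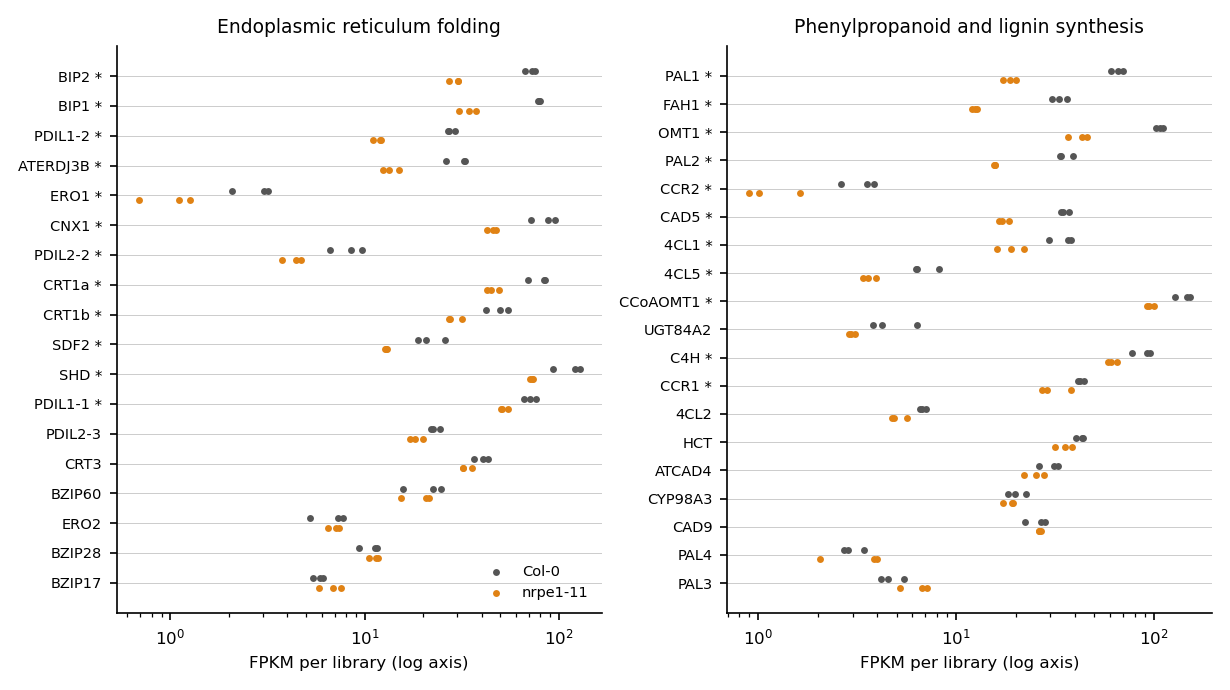
FPKM per library (log axis) for every tested member of the folding list (left) and the phenylpropanoid list (right), with Col-0 in grey and nrpe1-11 in orange, genes ordered by log2 fold change and an asterisk on those that fell. All 12 marked folding genes and all 11 marked pathway genes have their 3 orange points to the left of the grey ones. The rule for a fall requires this.

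The ethylene synthesis list also had falls. Ethylene is made from S-adenosylmethionine by ACC synthases (ACS) and then ACC oxidases. The list also holds the synthetases of S-adenosylmethionine itself, SAM1, SAM-2, MAT3 and MTO3, of which MAT3 and MTO3 fell. SAM1, SAM-2 and MTO3 were named after their values were seen. Of 12 tested genes of the list 7 fell and 0 rose, and 4 of the 7 kept the call with each library left out. ACS6 (AT4G11280), an ACC synthase activated by stress MAP kinases, was at 20.3, 16.3 and 20.9 in Col-0 and 2.76, 2.59 and 2.17 in nrpe1-11, with a log2 fold change of -2.52 (adjusted p = 9.93e-09, SE 0.15). ACS2 (AT1G01480) measured only 2.87, 2.33 and 3.25 in Col-0 and 1.1, 0.565 and 0.243 in nrpe1-11, with a log2 fold change of -1.25 (adjusted p = 0.000906, SE 0.22). The groups were apart in both genes, as the rule for a fall requires, and more widely in ACS6. Perception and signalling had 1 rise and 1 fall in 15 tested genes, near the background of 6.70% for rises and 7.40% for falls. The 1 fall, ERF1, passed the filter only through Col-0. EIN3, the master transcription factor, went from 70.6 ± 3.91 to 94.6 ± 3.2 FPKM (mean ± SD, n = 3 each), with a log2 fold change of 0.42 (adjusted p = 0.00424, SE 0.091). ERF1, its direct target, went from 2.67 ± 0.618 to 0.118 ± 0.103 FPKM (mean ± SD, n = 3 each), with a log2 fold change of -1.71 (adjusted p = 3.02e-05, SE 0.21).

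Abscisic acid genes were counted by role, with no test between roles. In synthesis and breakdown 2 of 7 tested genes fell. The other 5 neither rose nor fell, with log2 fold changes from -0.49 to -0.007. ABA1 (AT5G67030), the zeaxanthin epoxidase of its synthesis, was at 48.4, 40.6 and 42.3 in Col-0 and 15.5, 13.3 and 11.7 in nrpe1-11, with a log2 fold change of -1.63 (adjusted p = 1.54e-07, SE 0.12). NCED4, a carotenoid cleavage dioxygenase, had a log2 fold change of -1.15 (adjusted p = 2.3e-05, SE 0.14). In reception and signalling 3 of 21 rose and 0 fell. The receptors RCAR3 and PYR1 had 70.3, 44.9 and 66.7 in Col-0 and 136, 107 and 108 in nrpe1-11 (RCAR3) and 33.6, 32.3 and 31.7 in Col-0 and 55, 58.5 and 51 in nrpe1-11 (PYR1). Their log2 fold changes were 0.95 (limma, adjusted p = 0.000462) and 0.73 (adjusted p = 9.74e-05). Every mutant library was above every wild-type library, as the rule for a rise requires. The kinase SNRK2.2 rose as well (0.53, adjusted p = 0.00659). Output genes went both ways, with RD22 at -1.04, KIN2 at -1.01 and the dehydrin ERD14 at 0.57.

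Growth hormone lists were counted beside a background of 6.70% for rises and 7.40% for falls, with no test. Shares of rises above it rest on 1 to 5 genes per list. GASA1 and GASA4, small cysteine-rich peptides induced by gibberellin, were the 2 of 12 tested gibberellin signalling genes that rose. GASA1 was at 630.0, 692 and 682 in Col-0 and 1115, 1059 and 1151 in nrpe1-11, with a log2 fold change of 0.73 (adjusted p = 6.44e-06, SE 0.076). GASA4 went from 145 ± 15.8 to 269 ± 17.8 FPKM (mean ± SD, n = 3 each), with a log2 fold change of 0.89. In brassinosteroid synthesis 2 of 11 rose, DWF1 (0.42) and DWF4 (0.65), and TIR1, the auxin receptor F-box protein, had a log2 fold change of 0.51 (adjusted p = 0.00413, SE 0.11). Brassinosteroid signalling had 1 rise and 2 falls in 18 tested, cytokinin synthesis and breakdown 0 rises and 1 fall in 10, strigolactone and karrikin genes 1 rise and 1 fall in 11, and gibberellin synthesis 1 rise and 0 falls in 8. Of 46 tested SAUR genes, which auxin induces in elongating organs, 5 rose and 1 fell. Of the 5 rises, 3 kept the call with each library left out. Of the same 5, 1 passed the filter only through nrpe1-11 and had to be higher there.

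Enzymes that detoxify and scavenge fell in numbers above the background. Antioxidant enzymes had 9 falls and 0 rises among 27 tested. CAT2, the main leaf catalase of peroxisomes, was at 168, 150.2 and 159 in Col-0 and 84.5, 77.4 and 89.7 in nrpe1-11, with a log2 fold change of -0.92 (adjusted p = 1.58e-06, SE 0.084). CSD1 and CSD2, the copper/zinc superoxide dismutases of cytosol and plastid, had log2 fold changes of -0.97 (adjusted p = 4.73e-06) and -0.91 (adjusted p = 8.15e-05). The summed level of the antioxidant list did not fall with them, at 2480 to 2652 FPKM in Col-0 and 2700 to 2751 in nrpe1-11. APX1, cytosolic ascorbate peroxidase, went from 142 ± 7.88 to 80.4 ± 1.51 FPKM (mean ± SD, n = 3 each), with a log2 fold change of -0.81 (adjusted p = 3.57e-06, SE 0.08). Glutathione transferases, which couple glutathione to reactive compounds, had 13 falls and 1 rise in 37, and 9 of the 13 kept the call with each library left out. GSTU4 was at 23.7, 16.7 and 24.3 in Col-0 and 2.75, 4.27 and 3.31 in nrpe1-11, with a log2 fold change of -2.34 (adjusted p = 5.87e-08, SE 0.16). GSTU12 was at 7.79, 5.02 and 7.48 FPKM in Col-0 and listed at 0 in 2 of its 3 mutant libraries, with a log2 fold change of -2.75 (adjusted p = 3.42e-07, SE 0.22). GSTF14 was the 1 member that rose (0.95). The summed level of the transferases was 2184 to 2612 FPKM in Col-0 and 1126 to 1271 in nrpe1-11.

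Cytochrome P450 enzymes, oxygenases of specialized metabolism, had 24 falls and 4 rises among 106 tested. CYP81F2, which modifies indole glucosinolates, was at 20.6, 21.6 and 21.2 in Col-0 and 2.59, 2.94 and 3.06 in nrpe1-11, with a log2 fold change of -2.52 (adjusted p = 3.68e-09, SE 0.13). CYP79B2 and CYP83B1, earlier on the indole glucosinolate route, had log2 fold changes of -2.46 and -1.52, and CYP79B2 also feeds camalexin synthesis. UDP-glucosyltransferases, which attach sugars to small molecules, had 15 falls and 3 rises in 77. Class III peroxidases, secreted wall enzymes, went both ways, with 9 falls and 5 rises in 51. PER4 (AT1G14540) was at 12.5, 12.3 and 14.3 in Col-0 and 0.664, 0.929 and 0.597 in nrpe1-11, with a log2 fold change of -3.02 (adjusted p = 1.95e-09, SE 0.15). AT5G64120 went from 242 ± 19.5 to 30.6 ± 3.18 FPKM (mean ± SD, n = 3 each), with a log2 fold change of -2.94 (adjusted p = 1.23e-11, SE 0.092). In the other direction, AT2G37130 was at 62.7, 66.7 and 68 in Col-0 and 132, 135 and 128 in nrpe1-11, with a log2 fold change of 0.99 (adjusted p = 8.01e-07, SE 0.085). All 9 falls and all 5 rises in this family kept the call with each library left out.

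Receptor kinases at the cell surface fell by family to different extents. Cysteine-rich receptor kinases had 10 falls and 1 rise in 22 tested (6 of the 10 kept the call with each library left out), lectin receptor kinases 9 and 0 in 34, wall-associated kinases 4 and 0 in 11, and leucine-rich repeat receptor kinases 11 and 5 in 122, a share close to the background of 7.40%. LECRKA4.1 (AT5G01540) was at 7.34, 7.51 and 7.69 in Col-0 and 1.11, 0.138 and 0.527 in nrpe1-11, with a log2 fold change of -2.46 (adjusted p = 4.73e-07, SE 0.20). WAK1 (AT1G21250), whose extracellular part binds pectin, had 29, 22.4 and 28.4 in Col-0 and 9.65, 10.2 and 10.9 in nrpe1-11, with a log2 fold change of -1.28 (adjusted p = 1.58e-06, SE 0.12). IOS1 (AT1G51800), a leucine-rich repeat kinase of immunity, measured 17.9, 14.2 and 18.4 in Col-0 and 3.15, 2.69 and 3.19 in nrpe1-11, with a log2 fold change of -2.15 (adjusted p = 2.46e-08, SE 0.13). In all 3 the mutant values lay below the wild-type values, as the rule for a fall requires, and far below them. CLV1 (AT1G75820), the receptor kinase that restrains the shoot meristem, was among the 5 that rose, with a log2 fold change of 0.64 (adjusted p = 0.00237, SE 0.13). None of the differences between these families was tested.

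Genes of penetration resistance and secretion at the plasma membrane had 5 falls and 0 rises in 13 tested, and all 5 kept the call with each library left out. MLO12 (AT2G39200), a membrane protein of mildew susceptibility, was at 23, 17.1 and 23 in Col-0 and 2.64, 3.35 and 4.45 in nrpe1-11, with a log2 fold change of -2.31 (adjusted p = 7.22e-08, SE 0.16). SYP122 and SYP121, plasma membrane syntaxins, had log2 fold changes of -1.33 (adjusted p = 2.14e-06) and -0.64 (adjusted p = 0.00137). PEN2 and PEN3, a myrosinase and an ABC transporter of the same resistance, had -0.46 and -0.75. Among the peptide signals, PROPEP3 (AT5G64905), the precursor of a danger peptide, was at 14.6, 9 and 12.8 in Col-0 and 1.85, 0.849 and 1.04 in nrpe1-11, with a log2 fold change of -2.55 (adjusted p = 4.66e-06, SE 0.26). Of its relatives PROPEP2 fell (-1.36) and PROPEP4 rose (0.85). The pectin methylesterase ATPMEPCRB, one of 6 falls in 33 tested genes of its family, went from 15 ± 1.95 to 1.9 ± 0.613 FPKM (mean ± SD, n = 3 each), with a log2 fold change of -2.48 (adjusted p = 8.19e-08, SE 0.17).

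**Figure D3:**
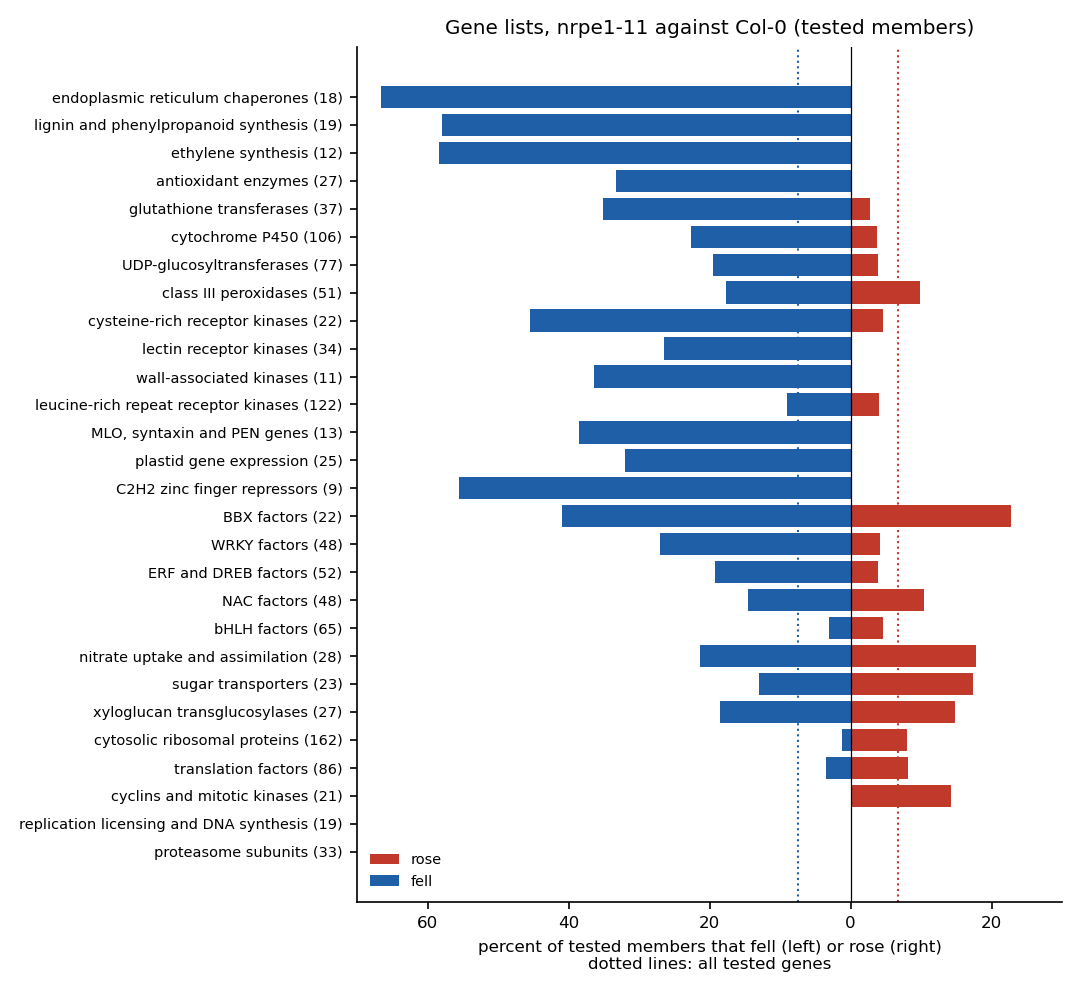
Percent of the tested members of 28 gene lists that fell (blue, left) or rose (red, right) in nrpe1-11, with the number tested in parentheses and the shares of all tested genes as dotted lines (7.40% fell, 6.70% rose). The folding, ethylene, phenylpropanoid and C2H2 lists have most of their members on the left, BBX factors and nitrate genes have members on both sides, and proteasome and replication genes have none on either side.

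Transcription factors were counted by family, and differences between families were not tested. WRKY factors, which bind the W-box, had 13 falls and 2 rises in 48 tested, and 9 of the 13 falls kept the call with each library left out. WRKY53, a factor of senescence and defense, was at 9.33, 7.22 and 10.3 in Col-0 and 1.77, 1.77 and 1.22 in nrpe1-11, with a log2 fold change of -1.94 (adjusted p = 1.1e-06, SE 0.17). WRKY46 had a log2 fold change of -1.38 (adjusted p = 0.000887, SE 0.24). ERF and DREB factors had 10 falls and 2 rises in 52. ERF2 was at 12.3, 13.6 and 12.4 in Col-0 and 2.22, 3.78 and 3.34 in nrpe1-11, with a log2 fold change of -1.76 (adjusted p = 1.31e-06, SE 0.16). C2H2 zinc finger repressors of the ZAT type had 5 falls and 0 rises in 9, with STZ (ZAT10), a repressor induced by salt and wounding, at 15.1, 18 and 16.1 in Col-0 and 1.53, 1.7 and 1.74 in nrpe1-11 and a log2 fold change of -2.71 (adjusted p = 3.99e-09, SE 0.14). NAC factors had 7 falls and 5 rises in 48, among them ATAF2 (-1.40) and NAC041 (0.91). R2R3 MYB factors had 4 falls and 0 rises in 53, a share of falls close to the background of 7.40%, with a family median of 0.26. Among the 4 were MYB51, an activator of indole glucosinolate genes (-2.08), and MYB15, an activator of lignin genes in defense (-2.05). The bHLH factors (3 rises and 2 falls in 65) and bZIP factors (4 rises and 0 falls in 35) are counted in the same way.

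B-box (BBX) factors, zinc finger proteins of light signalling and flowering time, went both ways, with 9 falls and 5 rises in 22 tested. BBX16 was at 4.2, 4.57 and 4.55 in Col-0 and 0.487, 0.253 and 0.139 in nrpe1-11, with a log2 fold change of -2.08 (adjusted p = 1.77e-06, SE 0.19). BBX28, a negative factor of light signalling, had 11.8, 12.9 and 11.4 in Col-0 and 3.72, 2.85 and 2.8 in nrpe1-11, with a log2 fold change of -1.67 (adjusted p = 5.87e-07, SE 0.14). STO, or BBX24, an attenuator of light responses, measured 65.9, 54.4 and 64.6 in Col-0 and 28.8, 25.5 and 28.2 in nrpe1-11, with a log2 fold change of -1.13 (adjusted p = 9.84e-07, SE 0.10). COL9, a repressor of flowering, stood at 19.7, 17.8 and 20.7 in Col-0 and 39.3, 46.1 and 43.8 in nrpe1-11, with a log2 fold change of 1.11 (adjusted p = 2.98e-06, SE 0.11). BBX21, a positive factor of light signalling, went from 36.5 ± 1.43 to 52.1 ± 2.21 FPKM (mean ± SD, n = 3 each), with a log2 fold change of 0.50 (adjusted p = 0.00136, SE 0.093). The first 3 had every mutant value below the wild type, and the last 2 had every mutant value above it. The rule for a fall or rise requires this. The hour of collection is not given for these libraries. LHCA1, an antenna protein of photosystem I, had a log2 fold change of -0.93, and the clock-controlled RNA-binding protein gene GRP7 rose from 438 ± 19.1 to 889 ± 36.7 FPKM (mean ± SD, n = 3 each). A part of time of day or light in these differences was not tested.

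Homeodomain factors had 4 rises and 1 fall in 42 tested and MADS factors 3 rises and 0 falls in 25. Both shares of rises were above the background of 6.70%, on few genes, and the difference was not tested. HB16 was at 43.7, 34.3 and 42 in Col-0 and 76, 76.6 and 76.1 in nrpe1-11, with a log2 fold change of 0.92 (adjusted p = 5.11e-05, SE 0.12). MAF5, a relative of the flowering repressor FLC, had low and uneven values of 1.8, 0.457 and 1.18 in Col-0 and 6.79, 3.71 and 8.46 in nrpe1-11, with a log2 fold change of 1.76 (adjusted p = 0.000794, SE 0.31). AGL24, a promoter of flowering, went from 6.22 ± 2.07 to 12.2 ± 1.48 FPKM (mean ± SD, n = 3 each), with a log2 fold change of 0.91 (adjusted p = 0.00424, SE 0.20).

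**Figure D4:**
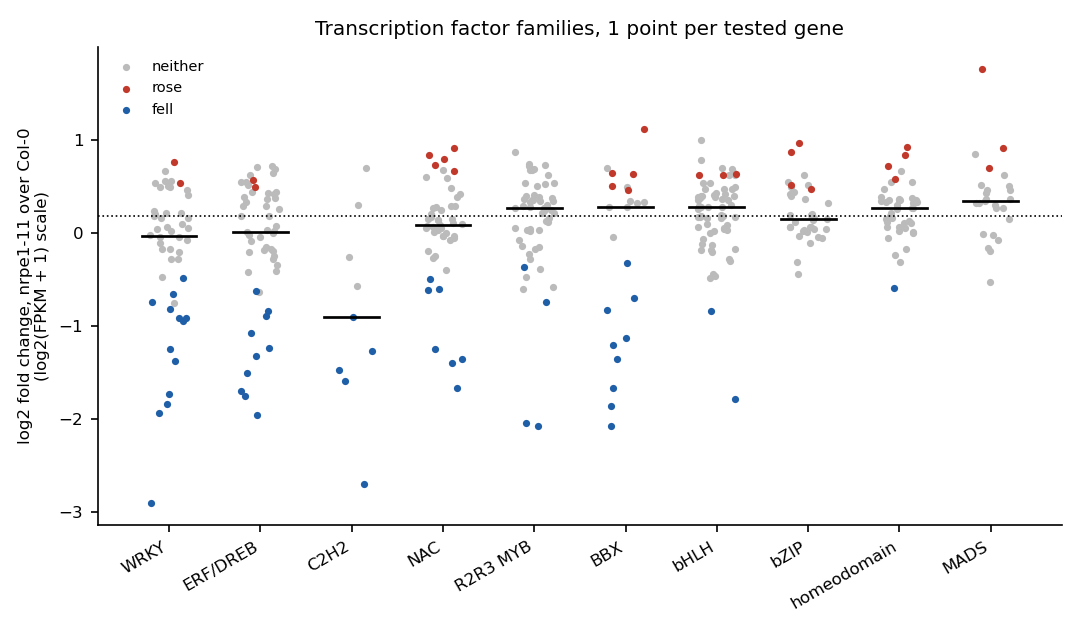
Log2 fold change of nrpe1-11 over Col-0 (log2(FPKM + 1) scale) for every tested gene of 10 transcription factor families, red where it rose, blue where it fell and grey otherwise. Black bars are family medians, and the dotted line is the median of all tested genes (0.18). WRKY, ERF and C2H2 families have long tails downwards, whereas BBX factors are spread from -2.08 to 1.11.

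Nitrogen genes changed in both directions. Of 28 tested genes of nitrate uptake and assimilation 5 rose and 6 fell. NRT1.5 (AT1G32450), which loads nitrate into the xylem, was at 102, 86 and 97.7 in Col-0 and 184, 184 and 193 in nrpe1-11, with a log2 fold change of 0.97 (adjusted p = 1.11e-06, SE 0.086). NRT1.1 (AT1G12110), the transporter that also senses nitrate, had 47.2, 49.1 and 50.1 in Col-0 and 84.2, 76.7 and 85.4 in nrpe1-11, with a log2 fold change of 0.74 (adjusted p = 3.71e-05, SE 0.092). NRT1.8, which takes nitrate back out of the xylem, measured 7.71, 6.2 and 7.13 in Col-0 and 1.79, 2.4 and 2.04 in nrpe1-11, with a log2 fold change of -1.38 (adjusted p = 1.85e-05, SE 0.16). Its direction was thus opposite to that of NRT1.5. NRT2.6, a high-affinity transporter, was listed at 0 in 2 of 3 mutant libraries and at 4.78 to 5.17 FPKM in Col-0, with a log2 fold change of -2.47 (adjusted p = 1.21e-07, SE 0.18). In assimilation GLU1, the ferredoxin-dependent glutamate synthase of leaves, went from 104 ± 7.16 to 47.2 ± 2.76 FPKM (mean ± SD, n = 3 each) (-1.12, adjusted p = 4.29e-07), and GLT1, the NADH-dependent form, went from 53.8 ± 2.54 to 72.1 ± 2.9 FPKM (mean ± SD, n = 3 each) (0.42, adjusted p = 0.00317).

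Sugar transporters had 4 rises and 3 falls in 23 tested, and the rises were all SWEET genes, which release sugar from cells. SWEET11 and SWEET12, a pair that exports sucrose for phloem loading, were at 44.3, 40.9 and 51.9 in Col-0 and 93.5, 92.4 and 83.7 in nrpe1-11 (SWEET11) and 18.7, 16.1 and 24.7 in Col-0 and 36.9, 33.8 and 43.5 in nrpe1-11 (SWEET12). Their log2 fold changes were 0.97 (limma, adjusted p = 6.58e-06) and 0.92 (adjusted p = 0.000496). The 3 that fell were SUC1, STP4 and MSS1 (STP13), a hexose importer of defense. MSS1 was at 21.2, 20.8 and 20.7 in Col-0 and 8.08, 6.33 and 7.26 in nrpe1-11, with a log2 fold change of -1.42 (adjusted p = 8.01e-07, SE 0.12).

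Wall-loosening genes split within families. EXPA1, an expansin of growing leaves, was at 116, 115 and 125 in Col-0 and 44, 46.6 and 49.4 in nrpe1-11, with a log2 fold change of -1.33 (adjusted p = 2.22e-08, SE 0.082). EXPA10 fell with it (-1.19), while EXPA16 went from 3.92 ± 0.813 to 11.5 ± 1.41 FPKM (mean ± SD, n = 3 each), with a log2 fold change of 1.36 (adjusted p = 5.27e-05, SE 0.17). Xyloglucan transglucosylases, which cut and rejoin wall polymers, had 4 rises and 5 falls in 27. XTH24 went from 403 ± 55.4 to 610.1 ± 18.1 FPKM (mean ± SD, n = 3 each) (0.61), and XTH18 went from 23.1 ± 4.5 to 8.56 ± 1.11 FPKM (mean ± SD, n = 3 each) (-1.32).

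Nuclear genes for plastid gene expression and its signals had 8 falls and 0 rises in 25 tested. GUN5 (AT5G13630), the large subunit of magnesium chelatase in chlorophyll synthesis, was at 142, 127 and 134 in Col-0 and 46.3, 41.4 and 46.4 in nrpe1-11, with a log2 fold change of -1.57 (adjusted p = 4.44e-09, SE 0.085). GUN4, the activator of that enzyme, had 48.4, 36.8 and 32.8 in Col-0 and 13.5, 18.4 and 10.8 in nrpe1-11, with a log2 fold change of -1.42 (adjusted p = 3.13e-05, SE 0.17). SIGE, or SIG5, a light- and stress-responsive sigma factor of the plastid polymerase, measured 6.02, 5.98 and 7.3 in Col-0 and 2.19, 1.44 and 1.12 in nrpe1-11, with a log2 fold change of -1.54 (adjusted p = 4.98e-05, SE 0.20). GLK2, an activator of chloroplast genes, went from 21.3 ± 0.878 to 10.2 ± 1.32 FPKM (mean ± SD, n = 3 each). The groups were apart in all 4, as the rule for a fall requires. The other 17 members neither rose nor fell, and their log2 fold changes ran from -0.35 for PTAC7 to 0.42 for PTAC18, both proteins of the plastid transcription complex.

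Lists of general machinery had few falls. Of 162 tested cytosolic ribosomal protein genes 36 were called higher with FPKM as deposited and 13 rose by the stricter reading (2 fell), with a list median of 0.19 against 0.18 for all genes. AT5G27850, a ribosomal protein L18 gene, stood out at 349.5, 279 and 320.4 in Col-0 and 937, 859 and 869 in nrpe1-11, with a log2 fold change of 1.49 (adjusted p = 1.2e-08, SE 0.088), and it overlaps a gene on the opposite strand. Translation factors had 7 rises and 3 falls in 86. Proteasome subunits, replication genes, Polycomb genes and the core subunits of Pol II had 0 rises and 0 falls among 33, 19, 17 and 14 tested. Cyclins and mitotic kinases had 3 rises in 21, and none of the 3 kept the call with every library left out.

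The largest rises included several noncoding and poorly described genes. Of 81 tested genes of the type ncRNA 21 rose and 1 fell, and of 9 small nuclear RNA genes 5 rose and 0 fell. In other noncoding types, 10 rose and 2 fell of 130 lncRNA genes, and 9 and 2 of 61 misc_RNA genes. For snoRNA genes it was 1 and 1 of 68, and for miRNA genes 0 and 1 of 21. The background was 6.70% for rises and 7.40% for falls. U2.11, a U2 spliceosomal RNA gene, was at 3.29, 4.8 and 6.68 in Col-0 and 24.8, 26 and 14 in nrpe1-11, with a log2 fold change of 1.92 (adjusted p = 0.000123, SE 0.27). The U2 genes are near-identical copies whose mature RNAs lack poly(A) tails, and U2.11 overlaps a gene on the same strand, so its reads may belong to another gene. AT1G67105, a noncoding RNA without an overlapping gene, had 12.4, 7.11 and 6.91 in Col-0 and 44.7, 34.7 and 38.8 in nrpe1-11, with a log2 fold change of 2.08 (adjusted p = 5.7e-06, SE 0.21). AT5G41830, an RNI-like protein gene, was listed at 0 in every Col-0 library and at 5.69, 5.31 and 5.27 in nrpe1-11. KELP (AT4G10920), a transcriptional coactivator, measured 60.2, 36.4 and 45.2 in Col-0 and 254, 244 and 236 in nrpe1-11, with a log2 fold change of 2.38 (adjusted p = 2.94e-08, SE 0.15), and it overlaps a gene on the opposite strand. The paired genes AT3G28290 and AT3G28300, both with the symbol AT14A and near-identical, went from 12.3 ± 1.91 to 41.4 ± 0.525 FPKM (mean ± SD, n = 3 each) and from 11.2 ± 1.77 to 37.1 ± 0.865 FPKM (mean ± SD, n = 3 each). Of tested genes 11 were listed at 0 in all nrpe1-11 libraries and above 0 in all Col-0 libraries, and 2 the other way. Chosen after its values were seen, ELIP1 (AT3G22840), an early light-induced protein of the first kind, had 2.11, 2.74 and 2.68 FPKM in Col-0.

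Neighbouring genes moved together in 1 stretch and apart in another. On chromosome 4 (TAIR10.1, 12117491 to 12191704), a row of 21 genes, most of them cysteine-rich receptor kinases, held 13 tested genes, of which 11 fell and 0 rose. CRK5, CRK6, CRK14 and CRK20, 4 of the 11, passed the filter only through Col-0 and could only fall, and the calls of CRK5, CRK6 and CRK21 were lost when some single libraries were left out. EP1 (AT4G23170), CRK10, CRK11, CRK13, CRK14 and EMB1290 had log2 fold changes between -1.32 and -1.99. CRK20 was listed at 0 in all nrpe1-11 libraries, while Col-0 had 2.15, 1.53 and 1.67 FPKM. EP1, CRK5, CRK6, CRK14, CRK21, EMB1290, CRK19 and CRK22 were named for their position, after their values were seen. CRK11 was at 13.4, 8.56 and 10.9 in Col-0 and 3.15, 2.94 and 3.23 in nrpe1-11, with a log2 fold change of -1.52 (adjusted p = 8.26e-06, SE 0.16). CRK19 and CRK22, within the same row, had -0.04 and -0.19 and were not called. The family members are similar in sequence and may share reads.

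The second stretch, also on chromosome 4 (7401087 to 7439805), is a tandem cluster of genes for small lipid transfer proteins, in which 4 genes fell and 3 rose of 8 tested. Members other than AT4G12490, AT4G12500 and EARLI1 were named for their position, after their values were seen. AZI1 and EARLI1, which act in primed defense, had log2 fold changes of -1.90 and -2.22. AT4G12490 was at 84.6, 98.4 and 83.2 in Col-0 and 4.91, 6.96 and 6.73 in nrpe1-11, with a log2 fold change of -3.65 (adjusted p = 1.62e-11, SE 0.12). AT4G12500, its neighbour, had 15.9, 20.2 and 13.8 in Col-0 and 0.556, 0.175 and 0.483 in nrpe1-11, with a log2 fold change of -3.64 (adjusted p = 1.95e-09, SE 0.18). The next genes in order, AT4G12510 and AT4G12520, measured 11, 10.8 and 11.6 in Col-0 and 18.7, 22.4 and 17.6 in nrpe1-11 (AT4G12510) and 11.1, 11.6 and 13.2 in Col-0 and 20.1, 22.3 and 19.1 in nrpe1-11 (AT4G12520). These 2 rose, with log2 fold changes of 0.76 and 0.73, and they are so similar that reads may be shared between them. AIR1 at the end of the cluster rose too (0.52).

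**Figure D5:**
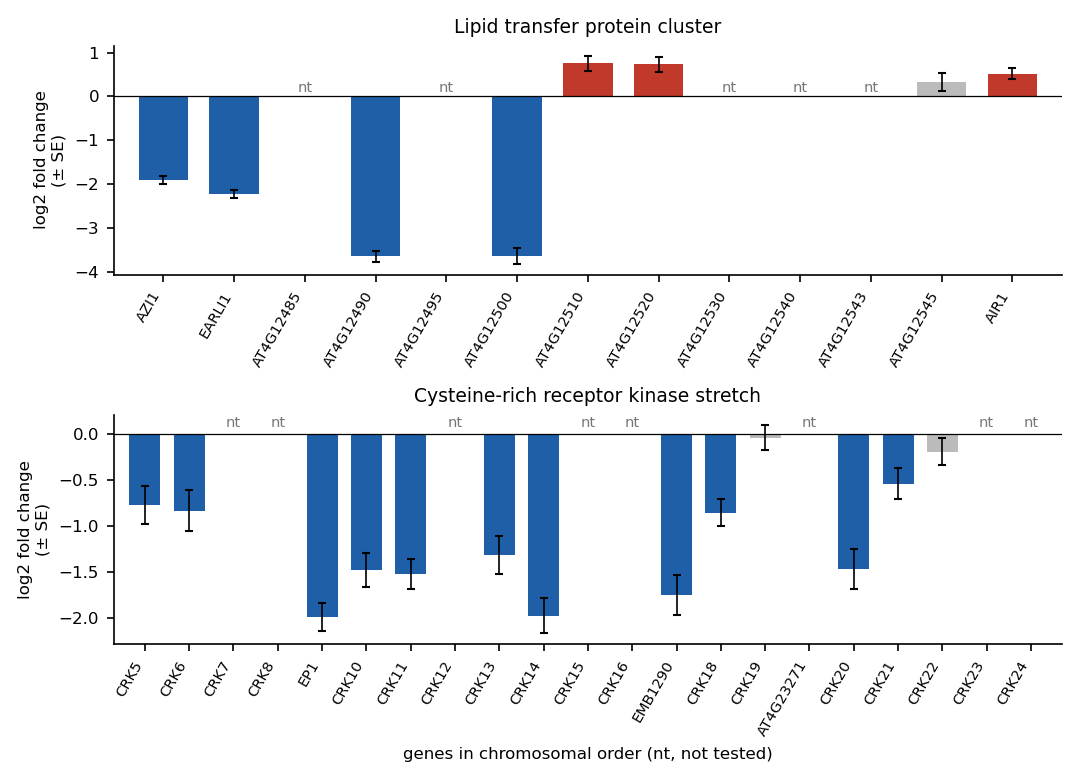
Log2 fold change of nrpe1-11 over Col-0 (bars, ± SE of the fit) for the genes of the lipid transfer cluster (top) and the receptor kinase stretch (bottom) in chromosomal order, blue where the gene fell, red where it rose, grey where neither, and nt where the gene was under the filter. The upper panel changes sign between AT4G12500 and AT4G12510, and the lower panel has 11 blue bars with CRK19 and CRK22 near 0.

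The W-box core TTGAC, searched on both strands of the 250 bases before annotated starts, was in 45.2% of all 17118 promoters, in 54.8% of those of protein-coding genes that fell and in 40.7% of those that rose. Other short motifs were counted in the promoters of genes that fell. The ABRE core ACGTG was in 32.2% of them, in 23.6% of all and in 22.2% of those that rose. The site II element TGGGCC, common in genes for ribosomal and other housekeeping proteins, was in 10.9%, 17.2% and 14.7% in the same order. The G-box CACGTG, which contains the ABRE core, was in 10.5%, 7.27% and 6.66%. These shares are descriptions of the letters in the window.

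For a few genes the nrpe1-11 libraries were also set against nrpd1-3, with the same 3 mutant libraries in both contrasts. BIP2 read 84.2, 80.8 and 84 in the nrpd1-3 libraries, and nrpe1-11 differed from them by -1.48 on the log2 scale (limma, adjusted p = 1.38e-08). For PAL1 the nrpd1-3 values were 73.1, 66.5 and 72.3 and the difference -1.86 on the log2 scale (limma, adjusted p = 2.33e-09). ACS6 had 21.6, 16.6 and 21.3 and a difference of -2.56 on the log2 scale (limma, adjusted p = 7.87e-09). COL9 was at 22.1, 20.7 and 24.1 and differed by 0.92 on the log2 scale (limma, adjusted p = 1.91e-05). NRT1.5 stood at 104, 99 and 108 and differed by 0.85 on the log2 scale (limma, adjusted p = 4.05e-06). In all 5 genes the nrpe1-11 libraries lay outside the range of both other groups, for Col-0 by the rule for a rise or fall. These 5 were picked from genes that rose or fell against Col-0. The share of all tested genes that differ from nrpd1-3 was not counted, so they do not show how far changes are particular to nrpe1-11. In the lipid transfer cluster the nrpd1-3 and nrpe1-11 ranges overlapped in 2 genes that rose. These were AT4G12510 (10.4 to 17.7 against 17.6 to 22.4) and AT4G12520 (11.4 to 19.5 against 19.1 to 22.3). In the other genes there that rose or fell the ranges did not overlap. NRPD1A, the gene mutated in nrpd1-3, was at 0.674, 0.67 and 0.948 there, a range that overlaps the Col-0 values of 0.565, 0.489 and 1.05, and nrpe1-11 was higher than nrpd1-3 by 0.74 on the log2 scale (limma, adjusted p = 0.0321).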

How the data were processed

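RNA sequencing of poly(A) RNA from seedlings was deposited by the authors as 1 table of FPKM values per gene and library. Per the submitters' processing notes, the tools were StringTie 2.1.7, HISAT2 2.2.1 and fastp 0.23.2, with TAIR10 as the build. Read counts, read length and the strand setting are not given in the sources used here. Estimated from the step between low FPKM values, 1.01 to 1.23 gigabases were aligned per library of the 2 groups compared, so that 1 FPKM in a 1 kb gene stood for 1013 to 1231 bases.

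From the deposited FPKM, log2(FPKM + 1) was fitted with limma 3.58.1 (R 4.3.3, with a trend of the variance on level) with 3 group means over all 9 libraries. The contrast was nrpe1-11 minus Col-0, and Benjamini-Hochberg adjustment ran over the 17646 genes that reached 1 FPKM in 3 or more of the 6 libraries compared. A call is an adjusted p under 0.05. A gene is said to have risen or fallen only if it was also called in the same direction after median-ratio rescaling and its groups did not overlap in FPKM. NRPE1, under the filter, was added to the fit on its own. The fit was tested on simulated data.

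Genes were named by a rule: NRPE1, the 30 largest changes in each direction among genes that rose or fell, up to 5 per list and direction by adjusted p, and the 10 most abundant in each direction. Other genes are marked as chosen after their values were seen. The members and lists were chosen with earlier results of these data known. Promoters are the 250 bases before each annotated start in TAIR10.1 (RefSeq). The alternatives were a pseudocount of 0.1, no filter, a mean FPKM of at least 5, other scalings, a replicate block, the 6 libraries alone, a robust fit and each library left out. Some items are not reported here.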

Additional observations from a re-analysis of the deposited data

How the results depend on the processing

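With FPKM as deposited, 2600 genes were called higher and 1341 lower. Median-ratio rescaling gave 1188 and 2132, quantile normalization 1648 and 1843, and requiring both scalings and no overlap, an alternative chosen after seeing the data, 1182 and 1306. Leaving out single libraries gave 1610 to 2390 higher and 1079 to 1408 lower calls. Higher calls dropped most without Col-0 replicate 2 (1656) and without nrpe1-11 replicate 1 (1711), 2 (1698) or 3 (1610). The cause was not tested, other than that these fits hold fewer libraries. Without an expression filter 1898 and 1249 genes were called. PSBR, called lower, had a log2 fold change of 0.019 under quantile normalization. NRPE1 stayed uncalled in the alternatives run, with log2 fold changes from -0.97 (pseudocount 0.1) to -0.32 and its lowest adjusted p, 0.0518, without a filter (limma). Of 5971 values of the 405 nameable genes under 15 alternatives, 5764 kept direction and call, 201 lost the call, 5 gained it and 1 reversed. Replicate numbers did not pair the Col-0 and nrpe1-11 libraries: deviations of same-numbered libraries correlated at 0.044, -0.014 and -0.0051. The nrpd1-3 libraries were not in this check. Like Col-0 replicate 2, nrpd1-3 replicate 2 had the largest ribosomal RNA share of its group (19.75%, against 15.9% and 14.2%). With a replicate block, 3014 genes were called higher and 1409 lower, and NRPE1 had -0.40 (limma, adjusted p = 0.181). Without read counts, counting error could not be set apart from other spread.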
